A study of Mus musculus with 3 samples.

Results

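The 10 type I interferon effector genes described here are Ifit1, Ifit2, Ifit3, Isg15, Rsad2, Oasl2, Mx1, Irf7, Bst2 and Ifi27l2a. They were taken by symbol, and each matched a row among the 27998 genes of the count matrices. The study profiled single cells of mouse bone marrow after a sort meant to remove blood cells, which used antibodies to CD45, a lineage mix and CD71, with Calcein AM and DAPI to keep live cells. There were 3 libraries, 1 per group. Untreated female CB6F1 mice gave the WT library; the strain is the hybrid of BALB/c and C57BL/6. The BMT library (bone marrow transplantation) came from female CB6F1 recipients irradiated with 2 doses of 4.0 Gy, which 4 hours later received nucleated marrow cells of B6.SJL mice carrying CD45.1. The aGVHD library (acute graft-versus-host disease) came from recipients treated in the same way that also received spleen cells of female C57BL/6 mice. Irradiation and donor marrow are therefore shared by BMT and aGVHD, and the infused spleen cells are what the labels give as the difference between them. How many mice went into each library, and on which day they were taken, is not stated in the sources used here. With 1 library per group no difference below has a replicate check, and every interval covers counting error only.

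Type I interferons bind the receptor made of IFNAR1 and IFNAR2, which signals through the kinases JAK1 and TYK2. The signal ends at the interferon-stimulated response element, a promoter sequence built from repeats of GAAA, and switches on the target genes. Interferon gamma acts through another receptor, and part of its targets are the same genes. Among the 10 genes, IRF7 is the transcription factor that amplifies interferon production. IFIT1, IFIT2 and IFIT3 bind foreign RNA or its partner proteins and block translation, and OASL2 belongs to the oligoadenylate synthetase family. ISG15 is a ubiquitin-like protein that is attached to other proteins. RSAD2 (viperin) is an enzyme that makes an antiviral nucleotide, and MX1 is a dynamin-like GTPase that is defective in most laboratory strains. BST2 (tetherin) holds budding virus at the cell surface and is also a surface marker of mouse plasmacytoid dendritic cells. IFI27L2A is a small hydrophobic protein of membranes.

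The response element could be looked for in promoter windows of RefSeq (build GRCm38.p6), which run from 250 bases before to 50 bases after each start site. Windows were found for 8 of the 10 genes, not for Mx1 and Ifi27l2a. The letters GAAANNGAAA, searched on both strands with overlapping matches counted, occurred in 1131 of 32851 windows of all genes, or 3.44%. They occurred in the windows of 5 of the 8 genes, and not in those of Ifit2, Irf7 and Oasl2. The stretches around the matches are shown because these genes are read together below. They are written on the strand of the gene from 5′ to 3′, with the matches in capitals; a match on the opposite strand reads TTTCNNTTTC.
Isg15 (chr4:156200860-156200911, minus strand): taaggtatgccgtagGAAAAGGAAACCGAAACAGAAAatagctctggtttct
Ifit1 (chr19:34640770-34640828, plus strand): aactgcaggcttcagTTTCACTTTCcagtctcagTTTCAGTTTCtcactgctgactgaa
Ifit3 (chr19:34583358-34583431, plus strand): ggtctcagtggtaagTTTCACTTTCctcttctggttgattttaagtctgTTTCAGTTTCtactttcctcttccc
Rsad2 (chr12:26456548-26456587, minus strand): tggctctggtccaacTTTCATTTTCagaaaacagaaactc
Bst2 (chr8:71537572-71537617, minus strand): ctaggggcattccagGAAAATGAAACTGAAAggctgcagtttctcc
Isg15 held 3 overlapping matches, which began 78, 72 and 66 bases before the start site. Ifit1 held 2, at 104 and 85 bases, Ifit3 held 2, at 156 and 122 bases, Bst2 held 2 overlapping ones, at 130 and 124 bases, and Rsad2 held 1, at 120 bases. Distances are from the RefSeq start site, and that of Bst2 differs from the start of the gene in the GENCODE annotation. The stretch printed for Ifit3 is identical in the window of its near copy Ifit3b. It lies before the start site, and whether reads of this pair were split between them in counting was not tested. A match is a description of the letters and not a binding site, and its absence from a window says nothing of the factor.

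Barcodes counted as cells had at least 1000 UMIs (unique molecular identifiers, each 1 captured RNA molecule) and 500 genes and under 10% mitochondrial UMIs. These were 7129 cells in WT, 3621 in BMT and 5568 in aGVHD, with median depths of 7355, 6932 and 6977.5 UMIs. Cells were placed in a class when they held at least 3 of its marker genes, each at 3 times the level of empty droplets or more, and met the gate of no other class. This placed 5121, 2859 and 4078 cells in 18 classes, of which 6 had at least 50 cells in every library. In 30 pairs of class and library with that many cells, nearly all of the class's own markers reached 2 times the empty droplets. The lowest share was 6 of 8, in the skeletal muscle gate of WT. The gate selects cells on these same markers, so this is no independent check of the classes. Neutrophil-gated cells (84, 555 and 611) and erythroid-gated cells (549, 99 and 881) were present in all libraries despite the sort, and plasmacytoid-gated cells numbered 1, 1 and 0. Between 8 and 11 cell barcodes were shared by each pair of libraries. Levels are given as CPM, the UMIs of a gene per 1000000 UMIs of the class in that library.

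RNA of these genes was also present outside cells. In empty droplets (barcodes of at most 100 UMIs) the 10 genes together made up 382 CPM in WT, 1307 in BMT and 1019 in aGVHD. Bst2 stood at 120, 428 and 268 CPM there, Ifi27l2a at 84.6, 349 and 231, and Isg15 at 106, 107 and 154. A difference between libraries is therefore called below, and described as higher or lower, only where the gene had at least 50 UMIs over both libraries, a ratio of at least 2 with an interval that excludes 1, and on the higher side at least 2 times the level of that library's empty droplets. A gene with at least 50 UMIs is referred to as measured. The share of a class's UMIs estimated to be free RNA, from genes the class should lack, ran from 0.820% in neutrophil-gated cells of aGVHD to 15.1% in mural-gated cells of WT among the 6 classes.

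**Figure D1:**
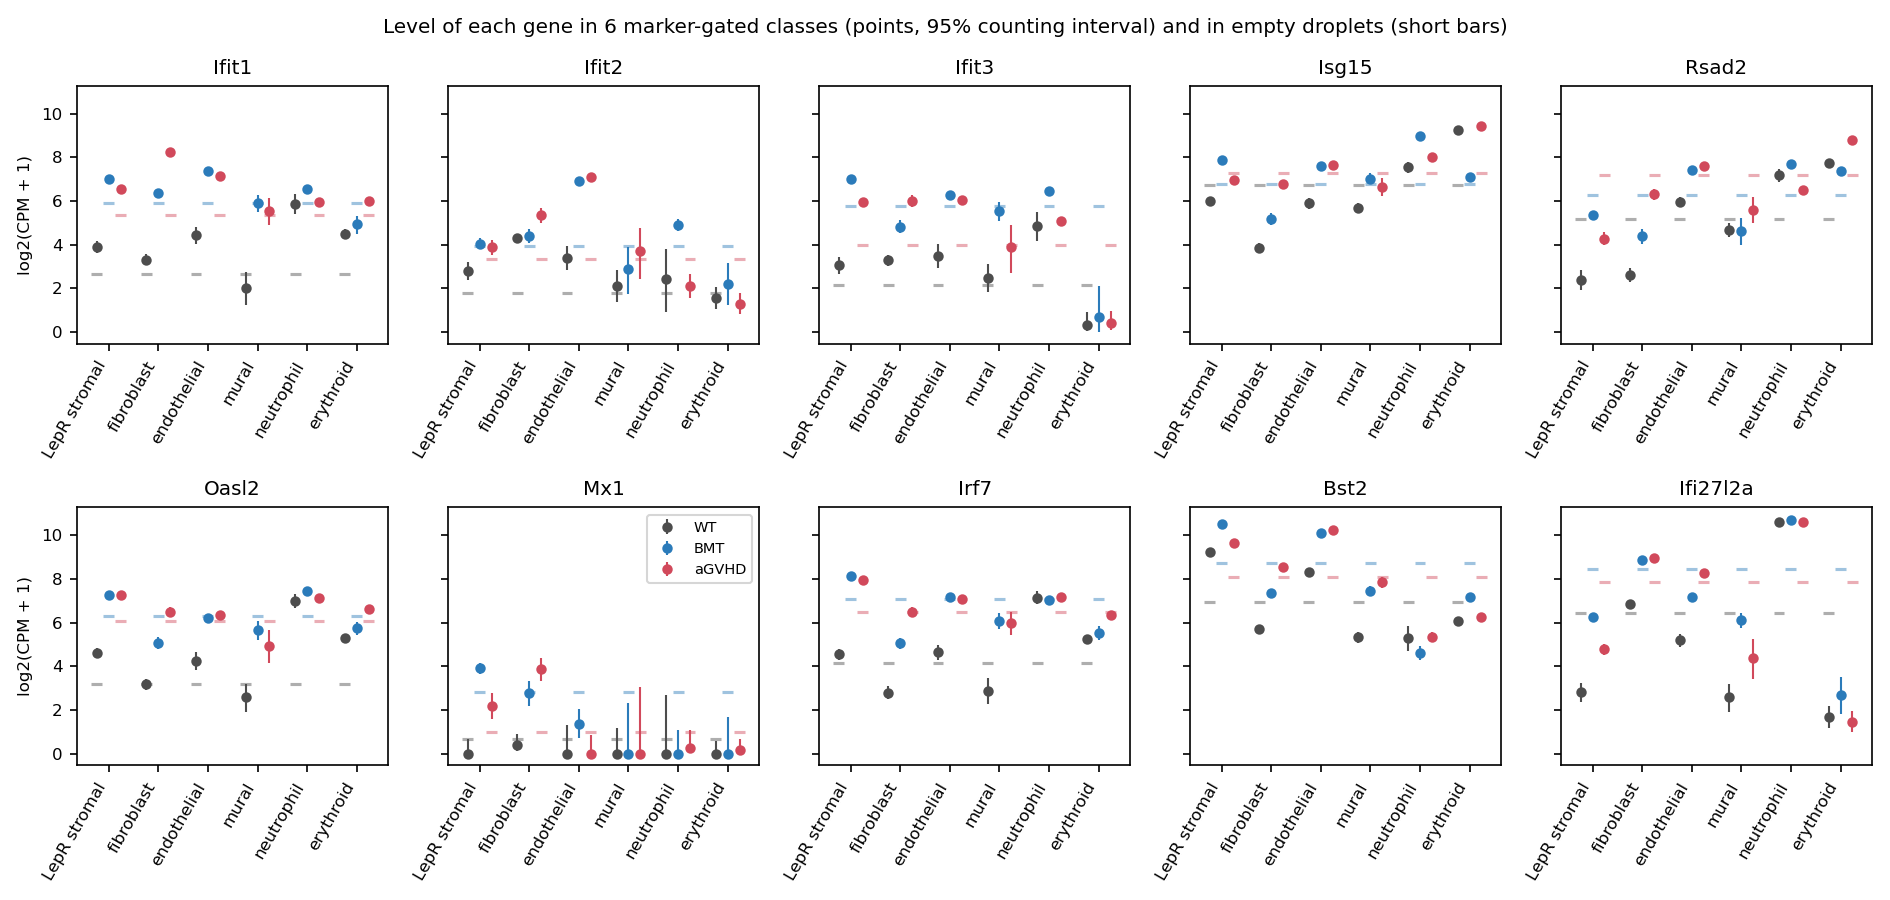
Level of each of the 10 genes, as log2(CPM + 1), in the 6 marker-gated classes found in every library. Points are the summed level with its exact 95% counting interval, and short bars of the same colour are the level in that library's empty droplets. Bst2 is high in LepR stromal and endothelial cells, Ifi27l2a in neutrophils, and Isg15 and Rsad2 in erythroid cells, while Ifit3 in erythroid cells lies below the bars of all 3 libraries.

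In untreated marrow the genes differed in the class that held them at the highest level. LepR stromal-gated cells (Cxcl12-rich reticular cells that support blood stem cells) held Bst2 at 599 CPM in WT (interval 580 to 619), 4.98 times the empty droplets, and 84.0% of them had a UMI of it. Endothelial-gated cells followed at 319 CPM, and fibroblast-, mural- and neutrophil-gated cells had 51.8, 38.8 and 38.3 CPM, all under the 120 CPM of the empty droplets. Ifi27l2a in WT was at 1559 CPM in neutrophil-gated cells, 18.4 times the empty droplets, and at 6.0 CPM in LepR stromal-gated cells. Neutrophil-gated cells of WT also held Oasl2 at 125 CPM, Irf7 at 140 CPM and Ifit1 at 57.5 CPM, which were 15.5, 8.37 and 11.0 times the empty droplets. Erythroid-gated cells of WT held Isg15 at 616 CPM and Rsad2 at 215 CPM, 5.82 and 6.14 times the empty droplets. Mx1 had no UMI in WT in 5 of the 6 classes, and 4 UMIs in fibroblast-gated cells, 75.0% of them in 1 cell. A count of 3 UMIs in LepR stromal-gated cells of WT is 0.485 CPM, and the exact interval of their 0 UMIs reaches 0.596 CPM. Chondrocyte-gated cells of WT, with a median depth of 15322 UMIs, had 34.1 CPM over all 10 genes, the lowest sum of the 30 pairs of class and library.

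In LepR stromal-gated cells all 10 genes were measured and had ratios of BMT to WT over 2. Of these 10 genes 6 were called higher and 0 lower (979 cells in WT, 509 in BMT). By the same rule 2.81% of 10539 genes of the class were called higher and 0.75% lower. The median log2 ratio of the 10 genes was 3.23, against 0.12 for all measured genes. Ifit3 rose from 7.28 CPM in WT to 128 in BMT, a ratio of 17.5 (interval 13 to 24.2). Irf7, the amplifier of the response, rose from 22.3 to 276 CPM, a ratio of 12.4 (10.4 to 14.8), and was detected in 12.0% of cells in WT and 81.7% in BMT, or 2.15% and 23.2% with every cell thinned to 1000 UMIs. Ifit1 rose from 13.9 to 126 CPM, by a ratio of 9.09 (7.29 to 11.5). Mx1 rose from 0 UMIs to 104, with 20.2% of the BMT UMIs in 1 cell. Its ratio to a floor of 3 UMIs in WT was 28.8 (counting interval of the ratio to that floor 9.60 to 142). Isg15 rose from 63.7 to 231 CPM and Bst2 from 599 to 1439, ratios of 3.62 (3.25 to 4.05) and 2.40 (2.31 to 2.49).
The other 4 genes had ratios over 2 but did not pass the rule, since their BMT level was under 2 times that of the empty droplets. Oasl2 was at 23.4 CPM in WT and 152 in BMT, Ifi27l2a at 6.0 and 76.1, Rsad2 at 4.2 and 40.5, and Ifit2 at 6.0 and 15.5. Without the requirement on empty droplets all 10 genes were called higher, against 5.55% of all genes under that setting. With the total without haemoglobin, mitochondrial and member genes Ifit1 (8.92) and Irf7 (12.1) were not called, nor was Irf7 with 1 more marker in the gate (11.4). With the mean of per-cell CPM in place of summed UMIs 3 were called, against 2.59% of all genes. Ifit1 (7.60), Isg15 (3.23) and Mx1 (0 UMIs in WT) were then not called. These cells were also deeper in BMT, with medians of 5774 UMIs per cell in WT against 14874, and whether depth has a part in the CPM differences was not tested.

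Endothelial-gated cells of BMT (788 cells, 537 in WT) held 9 measured members, of which 4 were called higher than in WT and 0 lower, against 2.6% of 9072 genes higher and 1.87% lower. Their median log2 ratio was 2.02, against 0.00 for all measured genes. Ifit2 rose most among them, from 9.54 CPM in WT to 119 in BMT, a ratio of 12.5 (8.28 to 19.6). This gene stood at 15.5 CPM in LepR stromal-gated cells and 20.2 CPM in fibroblast-gated cells of BMT. Ifit1 rose from 20.7 to 167 CPM, a ratio of 8.10 (6.11 to 10.9), and Bst2 from 319 to 1107 CPM, a ratio of 3.48 (3.23 to 3.75). Rsad2 rose from 60.4 to 172 CPM, a ratio of 2.85 (2.39 to 3.41). The other 5 were at ratios of 3.35 to 7.29 without passing the rule on empty droplets, and without it all 9 were called, against 5.11% of all genes. Cells with capillary markers (185 in WT, 475 in BMT) had 3 of 9 members higher and 0 lower, against 2.86% of 6706 genes higher and 2.04% lower: Ifit1 at a ratio of 6.49, Ifit2 at 6.95 and Bst2 at 2.40. Those with venular or sinusoidal markers (128 and 61) had 2 of 5 higher and 0 lower, against 6.52% of 4092 genes higher and 4.01% lower: Ifit1 at 10.1 and Bst2 at 5.81. Rsad2 was at 131 and 161 CPM in the cells with capillary markers, and at 3.63 (3 UMIs) and 126 CPM in those with venular or sinusoidal markers. The difference between these subsets was not tested.

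Fibroblast-gated cells (1265 in WT, 271 in BMT) held 9 measured members, none of which was called between BMT and WT, where 1.01% of 10586 genes were called higher and 0.954% lower. Ifi27l2a stood at 114 and 457 CPM in this class, Bst2 at 51.8 and 162 and Ifit1 at 8.98 and 80.9, with ratios of 4.02, 3.13 and 9.01. In BMT these 3 levels were 1.31, 0.379 and 1.36 times the empty droplets, and without that requirement 8 members were called higher, against 3.07% of all genes. Ifit2 was the exception, at 19.0 CPM in WT and 20.2 in BMT, a ratio of 1.06 (0.797 to 1.40).
Mural-gated cells (511 and 103) had 8 measured members and none called, against 1.42% of 7277 genes higher and 1.68% lower; the summed level of the 10 genes was 142 CPM in WT and 620 in BMT. Without the requirement on empty droplets 7 of them were called higher, against 3.55% of all genes. Rsad2 in this class was at 24.5 and 23.7 CPM, and 60.3% of the Ifi27l2a UMIs of BMT lay in 1 cell. Osteolineage-gated cells (206 and 97) had 6 measured members and none called, against 0.482% of 7468 genes higher and 0.777% lower. Ifit3 there was at 2.41 CPM in WT and 53.9 in BMT, a ratio of 22.3 (11.1 to 52.5), and Bst2 at 65.1 and 203, neither of them at 2 times the empty droplets of BMT, and 35.9% of the Ifit3 UMIs of BMT lay in 1 cell.

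In neutrophil-gated cells Ifi27l2a was at nearly the same level in the 3 libraries, at 1559 CPM in WT, 1653 in BMT and 1557 in aGVHD, and the ratio of BMT to WT was 1.06 (0.993 to 1.13). Of 9 measured members 2 were called higher in BMT and 0 lower, where 7.26% of 4035 genes were called higher and 2.03% lower. Isg15 rose from 186 to 510 CPM, a ratio of 2.75 (2.29 to 3.32). Ifit2 rose from 3 UMIs (4.42 CPM) to 97 UMIs (28.8 CPM), a ratio of 6.52 with a wide interval of 2.16 to 32.1, and was not called against empty droplets of at most 50 UMIs (6.52), with the total without haemoglobin, mitochondrial and member genes (6.51) or with 1 more marker in the gate (4.27). Without the requirement on empty droplets 3 members were called higher, against 14.1% of all genes. Irf7 was at 140 CPM in WT and 129 in BMT, and Oasl2 at 125 and 175. The WT class rests on 84 cells, and 30.8% of its Ifit1 UMIs lay in 1 of them.
In B lineage-gated cells (230 in WT, 217 in BMT) 1 of 2 was called higher in BMT and 0 lower, against 6.33% of 5746 genes higher and 2.52% lower. This was Ifi27l2a, which rose from 143 to 779 CPM, a ratio of 5.44 (4.68 to 6.34). In T- or NK-gated cells (61 in WT, 69 in aGVHD) none of 4 was called, at 1.47% of 2652 genes higher and 0.98% lower, and Ifi27l2a was at 673 and 650 CPM. The share estimated to be free RNA in these T- or NK-gated cells was 41.3% and 40.6%. In megakaryocyte-gated cells (71 in BMT, 196 in aGVHD) none of 7 was called, at 0.594% of 6056 genes higher and 1.39% lower, and Bst2 was at 147 and 143 CPM. Ifi27l2a in megakaryocyte-gated cells was at 25 and 10.1 CPM, with 64.3% of the BMT UMIs in 1 cell.

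**Figure D2:**
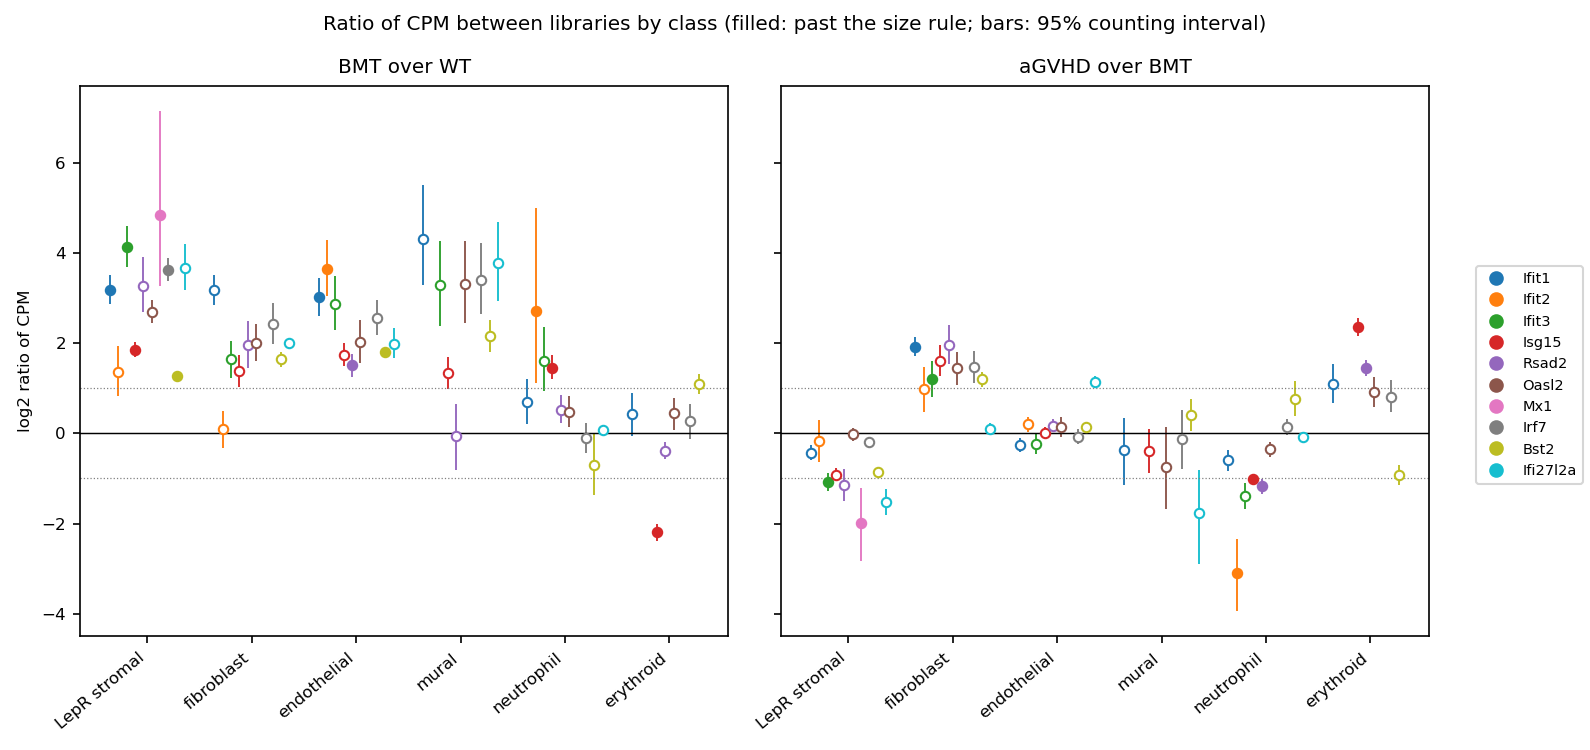
Ratio of CPM between libraries on a log2 scale, for each measured gene in the 6 classes, BMT over WT on the left and aGVHD over BMT on the right; both panels use the BMT library. Filled points passed the size rule, open points did not, bars are 95% counting intervals and dotted lines mark a ratio of 2 in each direction. The left panel lies mostly above 0, with medians nearer to it in neutrophil (0.53) and erythroid cells (0.36) than in LepR stromal cells (3.23), and the right panel shows fibroblast cells above 0 and LepR stromal cells below it.

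The comparison of aGVHD with BMT shares the BMT library with the comparison above, so the pair of ratios of a gene are not independent. In LepR stromal-gated cells (367 in aGVHD) 0 of 10 measured members were called higher in aGVHD than in BMT and 2 lower, against 1.23% of 10218 genes higher and 3.61% lower. Ifit3 was lower, at 60.8 CPM against 128 in BMT, a ratio of 0.477 (0.415 to 0.546), and Mx1 at 3.55 CPM against 14.0, a ratio of 0.254 (0.140 to 0.432). Bst2 was at 792 CPM against 1439, Isg15 at 123 against 231 and Ifi27l2a at 26.6 against 76.1, without passing the rule. Oasl2 and Irf7 were near their BMT levels, with ratios of 0.987 (0.896 to 1.09) and 0.880 (0.817 to 0.948). The calls of Ifit3 and Mx1 were both lost with the mean of per-cell CPM, where their ratios were 0.585 and 0.331, and that of Ifit3 with the median ratio of all genes set to 1 (0.525). Without the requirement on empty droplets 4 members were lower, against 6.31% of all genes. Set directly against WT, aGVHD had 4 of 9 measured members higher (Ifit1, Ifit3, Oasl2 and Irf7, at ratios of 6.77, 8.36, 6.41 and 10.9) and 0 lower, where 3.25% of genes were called higher and 3.57% lower. Against WT, Ifit1 (6.66) and Oasl2 (6.30) were not called with the total without haemoglobin, mitochondrial and member genes, and without the requirement on empty droplets 7 members were higher (5.5% of all genes).

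Fibroblast-gated cells of aGVHD (318 cells) stood above those of BMT. Of 9 measured members 2 were called higher and 0 lower, against 1.26% of 8266 genes higher and 3.04% lower, and the median log2 ratio was 1.44 against -0.08 for all measured genes. Ifit1 rose from 80.9 CPM in BMT to 306 in aGVHD, a ratio of 3.78 (3.26 to 4.38), and this was its highest level of the 30 pairs of class and library. Ifit3 rose from 27.5 to 63.3 CPM, a ratio of 2.30 (1.74 to 3.06). Against WT, 4 members of 9 were higher (Ifit1, Ifit2, Ifit3 and Ifi27l2a), with a ratio of 34.0 (27.7 to 42.2) for Ifit1, where 1.85% of genes were called higher and 3.25% lower. With the mean of per-cell CPM Ifit2 (1.90) and Ifi27l2a (3.65) were no longer called against WT. Nor was Ifit2 with 1 more marker in the gate (1.94). Ifi27l2a was also not called with the total without haemoglobin, mitochondrial and member genes (4.39). Isg15 was at 13.6 CPM in WT, 35.3 in BMT and 108 in aGVHD, and Bst2 at 51.8, 162 and 373, neither of them at 2 times the empty droplets of aGVHD. Without that requirement 7 members were called higher in aGVHD than in BMT and 9 higher than in WT, against 3.23% and 4.42% of all genes. The UMIs were unevenly spread: 10.3% of Ifit1 and 28.9% of Rsad2 UMIs in aGVHD lay in 1 cell each. The share estimated to be free RNA was 3.73% in WT, 9.30% in BMT and 13.8% in aGVHD, and subtracting it gave 3 calls in place of 2 for aGVHD over BMT.

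Endothelial-gated cells of aGVHD (1250 cells) and BMT had 9 measured members and none called in either direction, where 1.44% of 9349 genes were called higher and 2% lower. The ratios ran from 0.834 for Ifit1 to 2.20 for Ifi27l2a (interval 2.0 to 2.42), which was at 141 CPM in BMT and 309 in aGVHD. Bst2 was at 1107 and 1214 CPM, Isg15 at 196 and 198, and Ifit2 at 119 and 137. Set against WT, 4 of 9 were higher in aGVHD (Ifit1, Ifit2, Ifit3 and Bst2, at ratios of 6.75, 14.3, 6.20 and 3.81), where 3.94% of genes were called higher and 3.29% lower. Without the requirement on empty droplets 1 was higher in aGVHD than in BMT and 9 than in WT, against 2.6% and 6% of all genes. Cells with capillary markers (856 in aGVHD) had none of 9 called against BMT (2.06% of 7900 genes higher, 1.71% lower) and 4 of 9 higher against WT (5.13% of 6855 genes higher, 3.41% lower), again Ifit1, Ifit2, Ifit3 and Bst2. Ifi27l2a in these cells was at 34.0 CPM in WT, 110 in BMT and 334 in aGVHD, the last being 1.45 times the empty droplets. In mural-gated cells (82 in aGVHD) 6 members were measured and none was called against BMT, where 0.488% of 3893 genes were called higher and 2.44% lower; of 4 measured against WT none was called, at 1.21% of 6922 genes higher and 3.13% lower. With no requirement on empty droplets 1 was lower than in BMT (4.91% of all genes) and 2 higher than in WT (2.85%).

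Neutrophil-gated cells had 3 of 9 measured members lower in aGVHD than in BMT and 0 higher, against 3.91% of 5264 genes lower and 0.95% higher. Isg15 fell from 510 to 255 CPM, a ratio of 0.499 (0.464 to 0.537), Rsad2 from 206 to 91.2, a ratio of 0.443 (0.393 to 0.499), and Ifit2 from 28.8 to 3.37, a ratio of 0.117 (0.0655 to 0.197). With 1 more marker required in the gate none was called: the ratios of Isg15 and Rsad2 were then 0.655 and 0.722, while that of Ifit2 was 0.147 (0.0752 to 0.268) without passing the rule. Isg15 was also not called with Scrublet doublets left out (0.507), with the median ratio of all genes set to 1 (0.582) or with the total without haemoglobin, mitochondrial and member genes (0.504), and Rsad2 not with the median ratio set to 1 (0.516). Ifit2 was not called with that total (0.118) or against empty droplets of at most 50 UMIs (0.117). When the requirement on empty droplets was dropped, 4 members were lower, against 11% of genes. Between aGVHD and WT none of 8 measured members was called, where 1.58% of 4481 genes were called higher and 2.03% lower; Oasl2 was at 125 CPM in WT and 137 in aGVHD, and Irf7 at 140 and 142.

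Erythroid-gated cells carried a part of the set. Isg15 was at 616 CPM in WT (4846 UMIs), 135 in BMT (224 UMIs) and 690 in aGVHD (6390 UMIs), and the WT and aGVHD levels were the highest of this gene in the 30 pairs of class and library. Rsad2 was at 215, 165 and 449 CPM, and its aGVHD level was likewise the highest of the 30. Oasl2 was at 38.4, 52.4 and 98.4 CPM, or 4.75, 0.672 and 1.47 times its empty droplets. Ifit1 was at 21.7, 29.5 and 62.6 CPM, or 4.15, 0.495 and 1.55 times. In contrast Ifit3 had 2, 1 and 3 UMIs in the 3 libraries, at 0.0748, 0.0112 and 0.0217 times its level in empty droplets, and Mx1 had 0, 0 and 1. Ifi27l2a was at 2.16, 5.42 and 1.73 CPM, under 0.03 times the empty droplets in each library. Neither Ifit3 nor Ifi27l2a was therefore detectable above free RNA in this class. Bst2, at 66.7, 143 and 75.2 CPM, was also under its empty droplets, at 0.555, 0.335 and 0.281 times their level. Of 6 measured members 0 were called higher and 1 lower in BMT against WT (7.99% of 7574 genes higher, 4.11% lower), namely Isg15 at a ratio of 0.219 (0.191 to 0.250). Against BMT, aGVHD had 2 higher and 0 lower (3.55% of 7209 genes higher, 14.3% lower), Isg15 at 5.12 (4.48 to 5.88) and Rsad2 at 2.73 (2.41 to 3.09). Against WT, aGVHD had 1 higher and 0 lower (0.32% of 8120 genes higher, 0.431% lower), Rsad2 at 2.09 (1.98 to 2.22). Under no requirement on empty droplets 1 was higher and 1 lower in BMT against WT (24.7% and 7.71% of all genes), and 3 were higher in aGVHD against BMT (5.51%) and 4 against WT (1.61%).
The erythroid gates did not hold the same cells in the 3 libraries. Haemoglobin made up 31.1% of their UMIs in WT, 4.61% in BMT and 45.5% in aGVHD, and the median log2 ratio of all measured genes was 0.51 for BMT over WT and -0.93 for aGVHD over BMT. Leaving haemoglobin, mitochondrial and member genes out of the total raised the calls of aGVHD over BMT from 2 to 4. The share of all genes called higher rose as well, from 3.55% to 9.38%. With the mean of per-cell CPM the ratio of Rsad2 was 1.04, not called.
Among erythroid-gated cells with cycling markers (411 in WT, 55 in BMT and 439 in aGVHD), Isg15 was at 403, 77.5 and 464 CPM and Rsad2 at 110, 32.8 and 186. Of 5 measured members these 2 were lower in BMT than in WT and 0 higher (11.8% of 6788 genes higher, 4.64% lower), with ratios of 0.192 and 0.299. Against BMT, 1 of 6, Isg15, was higher in aGVHD at a ratio of 5.98 and 0 lower (4.55% of 6159 genes higher, 12.4% lower), and against WT none of 6 was called (0.228% of 7440 genes higher, 0.188% lower). In the cells without cycling markers (138 in WT, 442 in aGVHD) Isg15 was at 1357 and 924 CPM and none of 6 was called (0.338% of 4434 genes higher, 0.271% lower).

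The cells were therefore split by haemoglobin share, a division chosen after the levels were seen, and levels recomputed per 1000000 UMIs other than haemoglobin. Isg15 was higher in the bins with more haemoglobin in every library. In cells with under 10% haemoglobin it was at 71.3 in WT (199 cells), 63.8 in BMT (83 cells) and 95.6 in aGVHD (273 cells), and the intervals of WT (62.6 to 80.9) and BMT (51.7 to 77.8) overlapped. In cells with at least 50% it was at 4992 in WT (228 cells), 2497 in BMT (8 cells) and 4265 in aGVHD (468 cells). Rsad2 went from 16.9 to 1913 in WT, from 67.1 to 2497 in BMT and from 28.7 to 2843 in aGVHD between the same bins. Ifit1 went from 2.37 to 187 in WT and from 5.61 to 404 in aGVHD, and Oasl2 from 9.17 to 293 and from 31.0 to 572. Bst2 lacked this slope, at 120 and 97.6 in WT and at 133 and 160 in aGVHD. None of these was above its empty droplets (120 and 268 CPM, haemoglobin included in the total). Under 10% haemoglobin Isg15 was also under its empty droplets (106, 107 and 154 CPM). So was Rsad2 (35.0, 76.7 and 147 CPM), and Ifit1 in WT and aGVHD (5.24 and 40.4 CPM). Oasl2 was under them in aGVHD (67.0 CPM) but not in WT (8.08 CPM). Levels of Isg15, Rsad2 and Ifit1 in that bin were not told apart from free RNA. Under 10% haemoglobin Rsad2 was at 67.1 in BMT and 28.7 in aGVHD, each under that library's empty droplets, so no order is read there. From 10% to 50% it was at 2819 in BMT, in 8 cells only, and at 688 in aGVHD, in 140 cells. From 50% on the order was not resolved, since the BMT interval (1989 to 3095, 8 cells) held the aGVHD level of 2843. In the whole class Rsad2 was lower in BMT than in aGVHD.

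**Figure D3:**
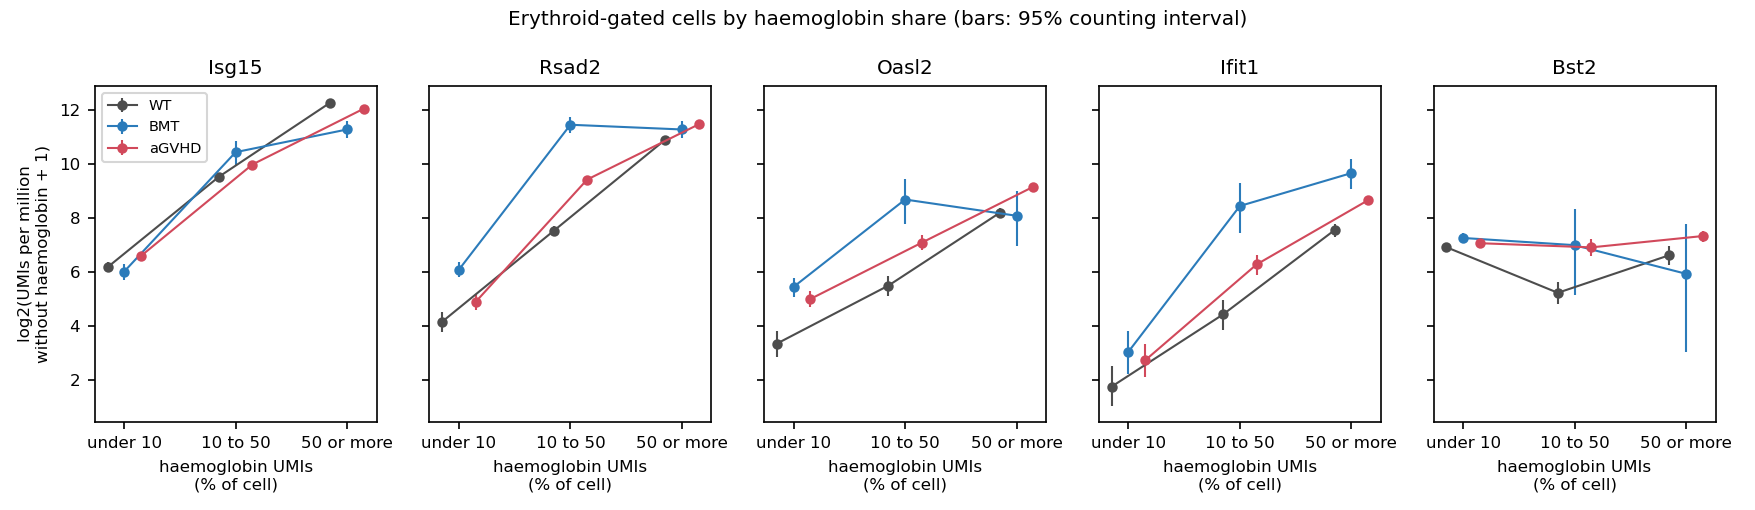
Level of 5 of the genes in erythroid-gated cells, as log2 of 1 plus the UMIs per 1000000 UMIs other than haemoglobin, by the share of the cell's UMIs that are haemoglobin; points are summed levels and bars 95% counting intervals. Isg15, Rsad2, Oasl2 and Ifit1 are higher in the bin of 50% or more than in the bin under 10% in each library. Bst2 is flat or lower except in aGVHD. The upper 2 bins of BMT hold 8 cells each, and levels in empty droplets are not drawn.

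How the genes were spread over cells was read after every cell was thinned to 1000 UMIs. Of LepR stromal-gated cells, 48.0% had a UMI of at least 1 of the 10 genes in WT (exact 95% interval 44.8 to 51.2), 83.1% in BMT (79.6 to 86.3) and 74.1% in aGVHD (69.3 to 78.5). At least 3 of the genes were seen in 0.613%, 15.1% and 9.54% of them. Endothelial-gated cells showed 37.6%, 73.9% and 83.4% with at least 1 gene, and fibroblast-gated cells 14.9%, 40.2% and 59.7%. The order of the libraries thus differed between the classes, with BMT first in LepR stromal-gated and aGVHD first in endothelial- and fibroblast-gated cells. Bst2 alone was seen in 40.6%, 68.8% and 49.0% of LepR stromal-gated cells and in 27.7%, 56.5% and 66.0% of endothelial-gated cells. In fibroblast-gated cells it was seen in 4.58%, 16.2% and 27.0%. Free RNA was not subtracted from these shares, and its part in them was not tested. Neutrophil-gated cells were at 61.9%, 75.1% and 74.5%, and erythroid-gated cells at 37.7%, 33.3% and 54.6%. Chondrocyte-gated cells of WT, taken as the class with least expression, had 1.34% (0.540 to 2.74) at a median depth of 15322 UMIs before thinning. Without thinning the LepR stromal shares were 89.8%, 99.6% and 98.9%.

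**Figure D4:**
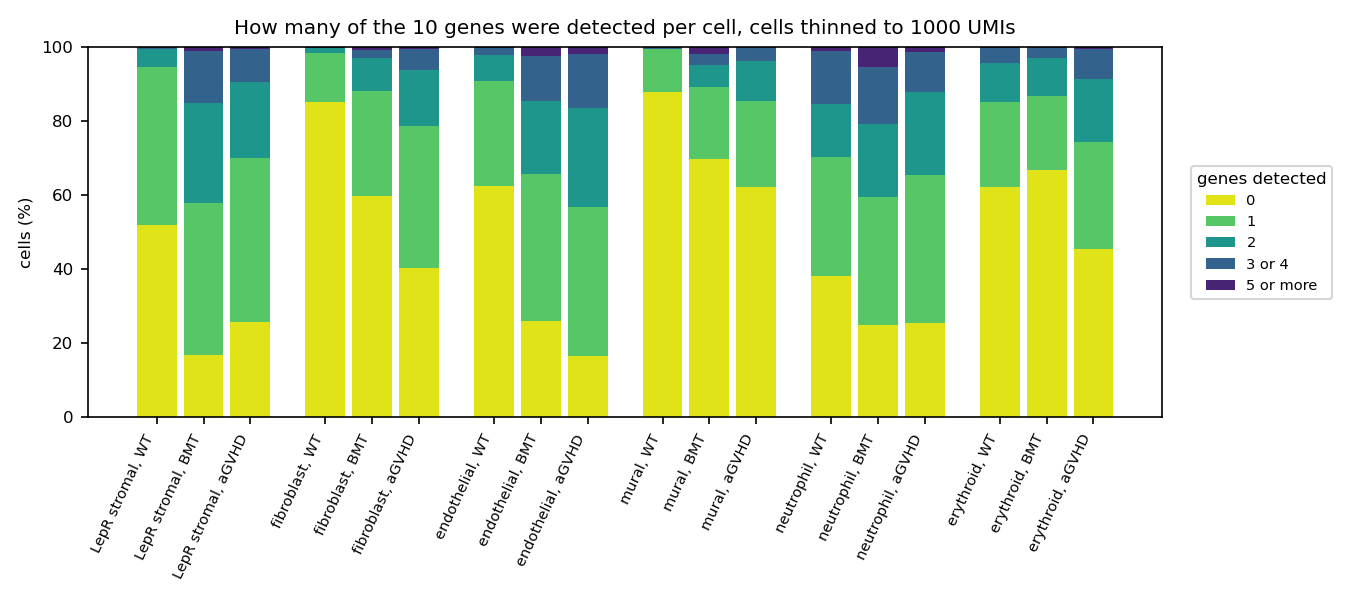
Share of cells, in percent, by how many of the 10 genes had a UMI after thinning to 1000 UMIs per cell, for the 6 classes in the 3 libraries. Cells without any of the genes make up 52.0% of LepR stromal cells in WT, 16.9% in BMT and 25.9% in aGVHD.

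The ligands and other genes of the pathway were read from lists. The 18 genes of type I interferons had 7 UMIs in all called cells of WT, 10 in BMT and 15 in aGVHD, of which Ifnb1 had 1, 3 and 9, so no source of these ligands can be read at this depth. Ifng, the type II ligand made by T and natural killer cells, had 59, 8 and 93 UMIs, and 58, 4 and 72 of them lay in T- or NK-gated cells. That gate held 61 cells in WT, 23 in BMT and 69 in aGVHD, so these counts are not levels per cell. Ifngr1, a receptor chain of interferon gamma, was at 158 CPM in LepR stromal-gated cells of WT and 263 in BMT, and the kinase Jak1 at 224 and 256. Irf1, a transcription factor induced by interferon gamma, was at 215 and 485 CPM in endothelial-gated cells, a ratio of 2.26 (2.06 to 2.49) that did not pass the rule on empty droplets.

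Of 8 measured nucleic acid sensors 5 were called higher in LepR stromal-gated cells of BMT against WT and 0 lower, where 2.81% of all genes were higher and 0.75% lower. Zbp1, a sensor of left-handed nucleic acid, rose from 25.7 to 142 CPM, a ratio of 5.50 (4.66 to 6.55). Ifih1 (MDA5) rose from 17.6 to 92.7 CPM and Ddx58 (RIG-I) from 26.4 to 68.3, ratios of 5.26 and 2.59. In fibroblast-gated cells Zbp1 rose again from BMT to aGVHD, from 33.5 to 144 CPM, a ratio of 4.29 (3.43 to 5.40). None of the 3 brakes of the pathway was called in LepR stromal-gated cells of BMT against WT. Usp18, which removes ISG15 from proteins and blocks the receptor, was at 6.14 and 46.5 CPM, Socs1 at 41.6 and 51.9, and Socs3 at 981 and 617.
Of 34 measured other effectors 15 were called higher and 1 lower in the same comparison (2.81% and 0.75% of all genes). In endothelial-gated cells 12 of 32 were higher and 0 lower (2.6% and 1.87% of all genes). The most abundant of this list were not among those called. Ifitm3, which blocks viral entry, was at 3024 and 3343 CPM in LepR stromal-gated cells of WT and BMT, Ifitm2 at 947 and 685, and Ifi27 at 342 and 439. In erythroid-gated cells 1 of 26 other effectors was called higher and 1 lower in BMT against WT, no more than the 7.99% and 4.11% of all genes, and Ifitm3 was at 224 and 335 CPM.

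Across the 30 pairs of class and library the genes that followed the mean of the 10 most closely, members and list genes left out, were Trim12c (Pearson r = 0.89), Parp10 (0.87), Ddx60 (0.85), Gbp2 (0.84) and Rnf213 (0.84). These were ranked among 10750 genes on log2(CPM + 10), and pairs from the same library share its free RNA and depth. Within the set the closest couples were Isg15 with Rsad2 and Irf7 with Oasl2, both at r = 0.89, and Ifit1 with Oasl2 at 0.86. Bst2 and Ifi27l2a had r = 0.01 with each other over the 30 pairs.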

How the data were processed

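Single-cell libraries of 3 groups were analysed, 1 library per group. Per the file headers the deposited matrices hold raw UMI counts made with Cell Ranger 3.1.0, all barcodes included. The submitters' processing notes name mm10 and Seurat, without settings. The libraries hold 86575425 UMIs (WT), 44219063 (BMT) and 67439098 (aGVHD).

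UMI counts were read as sparse matrices, cells and empty droplets were chosen by the limits given in the report, and cells were gated on marker lists. The gate's thresholds (3 markers, 3 times the empty droplets) were set after the values had been seen. The 10 genes, the marker and pathway lists and the comparisons were chosen with earlier results of these data known. Cells meeting 2 or more gates (380, 127 and 306) were left out as possible doublets, and leaving out the highest Scrublet scores was an alternative. Cells meeting no gate (1628, 635 and 1184) and barcodes over the mitochondrial limit (544, 253 and 548) entered no comparison.

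UMIs were summed per class and library. Poisson intervals of levels, conditional intervals of ratios and Clopper-Pearson intervals of shares are exact at 95% and cover counting error only. No test between groups was possible with 1 library each. A ratio against 0 UMIs was taken against a floor of 3. All genes of a class went through the same size rule, whose ratio and interval part was tested on simulated data. The text names all 10 members, of each pathway list the 3 genes with most UMIs (the ligand list by its counts; the counts of the receptor and signalling list are not reported here), and the 5 genes most like the members. Promoter windows are those of RefSeq. Tools were Python 3.11.15, numpy 2.4.6, scipy 1.17.1, pandas 2.3.3, scanpy 1.11.5 and matplotlib 3.10.9.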

Additional observations from a re-analysis of the deposited data

Results flagged for a closer look

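Barcodes left out for their mitochondrial share held RNA of the 10 genes above the level of those in WT: 785 CPM in 253 barcodes of BMT and 572 CPM in 548 of aGVHD, against 234 CPM in 544 of WT. Each of these values was under that of the same library's empty droplets (1307, 1019 and 382 CPM).

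Several genes were called in opposite directions in different classes under the same comparison; the difference between the classes was not tested. Isg15 was higher in BMT than in WT in LepR stromal-gated cells (ratio 3.62) and neutrophil-gated cells (2.75) and lower in erythroid-gated cells (0.219). Ifit3 was lower in aGVHD than in BMT in LepR stromal-gated cells (0.477) and higher in fibroblast-gated cells (2.30). Isg15 was lower in aGVHD than in BMT in neutrophil-gated cells (0.499) and higher in erythroid-gated cells (5.12), and so was Rsad2, with ratios of 0.443 and 2.73. Some of these calls were lost under other settings. Those of Isg15 and Ifit3 in LepR stromal-gated cells and of Rsad2 in erythroid-gated cells were lost with the mean of per-cell CPM. For aGVHD over BMT, those of Isg15 and Rsad2 in neutrophil-gated cells were lost with 1 more marker in the gate. The haemoglobin share of the erythroid gate differed between the libraries, at 31.1% in WT, 4.61% in BMT and 45.5% in aGVHD.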

How the results depend on the processing

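No paired analysis was possible because each group is 1 library, and for the same reason no library could be left out. None of the 35 calls of a member in the 6 classes turned its direction under the 12 alternatives for calls. The ratio of 1.5, lower UMI minimums and the changes to the empty-droplet requirement leave every ratio as it was. No direction could therefore turn under them. Except for the empty droplets of at most 50 UMIs, these settings only loosen the rule, so no call could be lost either. Of the 35 calls, 8 were lost with the mean of per-cell CPM and 8 with a total without haemoglobin, mitochondrial and member genes. With 1 more marker in the gate 6 were lost, and at most 3 under any other. The largest shift came from dropping the requirement on empty droplets. Members called higher in BMT than in WT then numbered 10 in LepR stromal, 8 in fibroblast, 9 in endothelial, 7 in mural and 1 in erythroid gates, where 5.55%, 3.07%, 5.11%, 3.55% and 24.7% of all genes were called higher. For aGVHD over BMT they numbered 7 in fibroblast and 1 in endothelial gates, with 4 lower in LepR stromal and 1 lower in mural gates (3.23%, 2.6%, 6.31% and 4.91% of all genes), and for aGVHD over WT 7, 9, 9, 2 and 4 in LepR stromal, fibroblast, endothelial, mural and erythroid gates (5.5%, 4.42%, 6%, 2.85% and 1.61%). With the mean of per-cell CPM, 3 members in LepR stromal, 4 in neutrophil and 1 in erythroid gates were higher in BMT than in WT. Of all genes 2.59%, 7.63% and 10% were then higher, and shares of all genes follow the counts below in brackets. In aGVHD against BMT 0 were then lower in LepR stromal and 1 higher in erythroid gates (3.48% and 2.47%). Against WT 2 were higher in fibroblast and 2 in erythroid gates (2.07% and 0.813%). With the other total, 1 was higher in neutrophil gates of BMT against WT (6.79%). For aGVHD against BMT 1 was then lower in neutrophil and 4 higher in erythroid gates (3.44% and 9.38%). For aGVHD against WT 2 were then higher in LepR stromal and 3 in erythroid gates (2.77% and 1.32%). With the median ratio of all genes set to 1, 1 member was lower in LepR stromal and 1 in neutrophil gates of aGVHD against BMT (2.72% and 2.34%). At a ratio of 1.5, 4 were lower in LepR stromal gates of aGVHD against BMT (7.57%) and 1 in neutrophil gates of aGVHD against WT (4.62%). With 1 more marker, 1 was higher in neutrophil gates of BMT against WT (6.75%) and 0 lower in those of aGVHD against BMT (2.77%). With empty droplets of at most 50 UMIs 1 was likewise higher in neutrophil gates of BMT against WT (7.36%). The cause of these shifts was not tested, beyond what each setting changes by construction.

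Shares of cells with at least 1 of the genes depend on depth by construction. Without thinning they were, for WT, BMT and aGVHD, 89.8%, 99.6% and 98.9% in LepR stromal, 57.5%, 90.4% and 88.4% in fibroblast, 74.9%, 94.3% and 96.2% in endothelial, 42.3%, 74.8% and 78.0% in mural, 83.3%, 95.9% and 96.2% in neutrophil and 73.4%, 84.8% and 88.2% in erythroid gates. Thinned to 2000 UMIs they were 69.3%, 93.2% and 88.5%, then 27.4%, 59.5% and 77.6%, then 55.4%, 88.4% and 95.4%, 19.9% and 54.3% in mural gates of WT and aGVHD, then 75.6%, 85.2% and 83.7%, and 52.1%, 51.7% and 69.7%.

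The level of these genes in empty droplets limits what can be called in BMT and aGVHD, and classes of 82 to 103 cells limit it further in mural and BMT erythroid gates.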
